A study of Mus musculus with 6 samples.

Results

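The set described here is the glucose transporter gene Slc2a1 and 9 genes of glycolytic enzymes, Hk2, Gpi1, Pfkl, Aldoa, Tpi1, Gapdh, Pgk1, Eno1 and Ldha. They were taken by symbol from a table of 22740 protein-coding genes, and all 10 symbols were found, each once. The libraries are from B16, a mouse melanoma line, which the series' design text names B16-F10 and the labels call BRAFV600E-negative. RNA was sequenced after 3 days with the vehicle DMSO (3 samples) or with CX-5461 at 1 uM (3 samples). CX-5461 is known as an inhibitor of RNA polymerase I, which transcribes the ribosomal RNA genes. All samples come from the same line in serum-containing medium, with no untreated group. The labels do not say whether the replicates were separate cultures, so the p-values measure the spread between these samples, which may be technical.

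Glycolysis splits glucose into pyruvate in the cytosol. Its early steps take up glucose, phosphorylate it and cleave the hexose into triose phosphates at the cost of ATP, and its later steps return ATP and NADH. Lactate dehydrogenase then turns pyruvate into lactate and restores NAD, and tumour cells, melanoma among them, are known for running this route with oxygen present. Several of these genes are textbook targets of the hypoxia-inducible factors (HIF) and of MYC, which bind short motifs with the core CGTG.

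The promoters of 4 of the genes are shown: Slc2a1 and Pgk1 were lower with CX-5461, Tpi1 was lowered most, and Ldha did not pass the test. Eno1, which was called higher, is not among them. Each is a window of 300 bases, 250 before the RefSeq start and 50 after it, read 5′ to 3′ on the strand of the gene (build GRCm38.p6). Capitals mark ACGTG, the core of one HIF site, or its reverse complement CACGT.
Slc2a1, chr4:119108495-119108794, plus strand: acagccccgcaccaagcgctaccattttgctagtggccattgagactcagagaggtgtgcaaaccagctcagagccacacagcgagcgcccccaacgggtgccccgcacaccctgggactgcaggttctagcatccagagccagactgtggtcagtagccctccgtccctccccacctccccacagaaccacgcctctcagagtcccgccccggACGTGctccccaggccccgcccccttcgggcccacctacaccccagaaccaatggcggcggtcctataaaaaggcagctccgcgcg
Tpi1, chr6:124814109-124814408, minus strand: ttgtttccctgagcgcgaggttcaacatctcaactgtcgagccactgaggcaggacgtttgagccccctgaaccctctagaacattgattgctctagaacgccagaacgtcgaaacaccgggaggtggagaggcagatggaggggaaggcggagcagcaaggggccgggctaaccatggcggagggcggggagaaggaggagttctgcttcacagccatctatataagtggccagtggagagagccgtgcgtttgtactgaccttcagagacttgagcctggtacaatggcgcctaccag
Pgk1, chrX:106186850-106187149, plus strand: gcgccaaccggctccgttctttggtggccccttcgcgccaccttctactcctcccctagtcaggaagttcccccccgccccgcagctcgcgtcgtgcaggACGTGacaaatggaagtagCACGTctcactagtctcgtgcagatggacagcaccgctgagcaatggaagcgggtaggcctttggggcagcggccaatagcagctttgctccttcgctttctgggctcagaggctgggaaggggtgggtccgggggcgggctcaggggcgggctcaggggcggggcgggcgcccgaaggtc
Ldha, chr7:46845554-46845853, plus strand: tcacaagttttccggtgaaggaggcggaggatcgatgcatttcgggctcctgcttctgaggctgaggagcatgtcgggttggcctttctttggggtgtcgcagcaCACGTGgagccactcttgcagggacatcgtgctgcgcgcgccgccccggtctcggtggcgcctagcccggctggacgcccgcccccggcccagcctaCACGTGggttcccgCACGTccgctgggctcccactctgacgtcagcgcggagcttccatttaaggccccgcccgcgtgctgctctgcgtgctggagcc
The Slc2a1 window holds 1 such place, the Pgk1 window 2 and the Ldha window shown 3, whereas the Tpi1 window holds none. Of the genes not shown, Hk2, Aldoa and Gapdh have such a place in at least 1 window, and Gpi1, Pfkl and Eno1 have none. RefSeq gives Ldha a second start, whose window (chr7:46846832-46847131) holds none either. At 2 of the places in Ldha the letters are CACGTG, the E-box, which reads the same on both strands and contains ACGTG. RefSeq lists 15 windows for the 10 genes, 3 of which have several starts. On either strand ACGTG was in 7 of the 15 windows, against 19.6% of all 32851 promoter windows of the table. The other HIF core, GCGTG, was in 8 of 15 against 32.4%, and CACGTG in 1 of 15 against 7.15%. Overlapping windows of Aldoa and of Eno1 share most of their letters. A match is only a description of the sequence, and binding was not measured here.

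Library totals ran from 17573990 to 22908309 counts. The 7 melanoma markers (Tyr, Tyrp1, Dct, Pmel, Mlana, Mitf and Sox10) were all detected, with summed levels of 22078 to 22929 CPM (counts scaled to each library's total times its TMM factor) in DMSO and 28253 to 30557 in CX-5461. Markers of other cells were low. The 5 fibroblast markers summed to 12.5 to 16.5 CPM in DMSO and 30.9 to 34.4 in CX-5461, of which Col1a2 was at 1.69 to 2.79 CPM in DMSO and 23.8 to 26.4 in CX-5461. Col1a1 was at 5.08 to 7.92 CPM in DMSO and 2.42 to 3.13 in CX-5461, Pdgfra at 4.64 to 6.502 and 3.89 to 4.91, and Dcn was at 0 in every DMSO library. The 4 leukocyte markers found summed to 11.1 to 12.0 and 15.6 to 17.7 CPM, mostly Cd68, and Ptprc was at 0 in every DMSO library. Lyz2 was at 0.328 to 1.45 CPM in DMSO and 3.29 to 5.12 in CX-5461, and Cd68 at 10.5 to 10.8 and 11.1 to 13.5. Csf1r was at 0.0558 to 0.164 CPM in DMSO and at 0 in every CX-5461 library. The 3 endothelial and 2 keratinocyte markers summed to at most 0.290 and 0.0506 CPM, with Cdh5 and Krt5 at 0 throughout. Whether the other cell types' markers have a part in the results was not tested. The mitochondrially encoded genes took 1.70% to 1.84% of counts in DMSO and 2.702% to 3.399% in CX-5461. When those genes and the 10 glycolysis genes were left out of the scaling factors, 6 of the 10 remained lower and 1 higher.

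With CX-5461, 6 of the 10 genes fell (Slc2a1, Gpi1, Pfkl, Aldoa, Tpi1 and Pgk1, with log2 changes of -0.58 to -0.36), Eno1 rose, and Hk2, Gapdh and Ldha did not pass. All 10 passed the filter on low counts. The test was edgeR's quasi-likelihood test over 12198 genes, called at a Benjamini-Hochberg adjusted p below 0.05. It called 36.5% of all tested genes lower and 37.2% higher, 73.7% in all, so 7 called genes of 10 is close to the background. The libraries of the groups did not overlap for 6 genes that were lower and 1 that was higher, against 37.9% and 38.2% of all tested genes, or 76.2% in all. The median log2 change (CX-5461 minus DMSO) of the 10 genes was -0.39, against -0.005 for all tested genes. Summed over the 10 genes the level was 8650, 8911 and 8908 CPM in the DMSO libraries and 6659, 7394 and 6423 CPM in the CX-5461 libraries. The groups did not overlap in this sum, which Aldoa and Tpi1 dominate. In RNA from whole cultures, less transcript per cell and fewer cells that express it cannot be told apart.

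**Figure D1:**
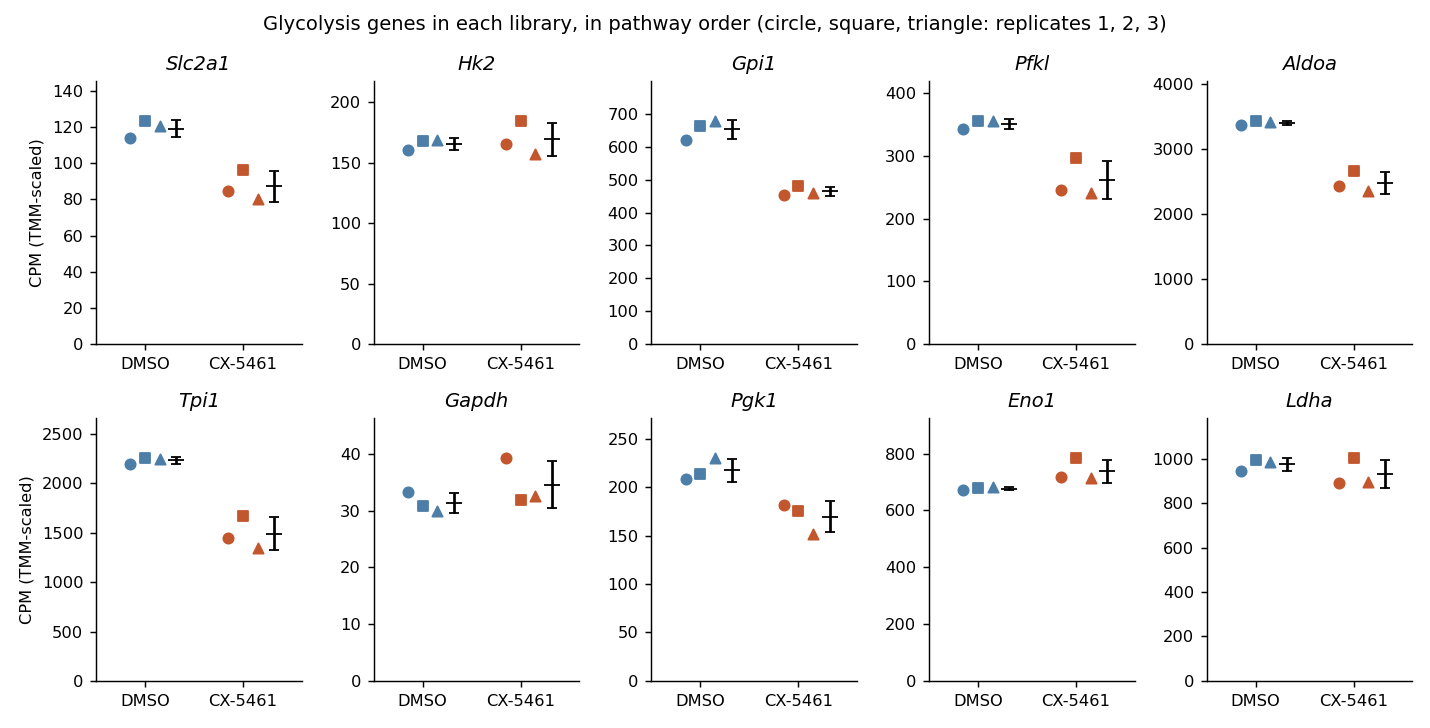
Level of each gene in each library, in CPM scaled by TMM factors, with the y axis of each panel starting at 0 and the mean and SD (n = 3) beside the points. For 6 genes the CX-5461 libraries all lie below the DMSO libraries, for Eno1 they all lie above, and for Hk2, Gapdh and Ldha the groups overlap.

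Slc2a1 encodes GLUT1, the transporter that brings glucose into most cultured cells (chromosome 4, 119108711 to 119137983, GRCm38). It was at 113.6, 123.1 and 120.4 CPM in DMSO replicates 1 to 3 and at 84.9, 96.4 and 80.0 CPM in CX-5461 replicates 1 to 3. The groups did not overlap, and the transcript fell by 26.9%, with a log2 change of -0.45 ± 0.06 (SE; edgeR adjusted p = 9.17e-06). Hk2 encodes hexokinase 2, which phosphorylates glucose and can sit on the outer mitochondrial membrane (chromosome 6, 82725025 to 82774454). It was at 160.4, 168.0 and 169.2 CPM in DMSO and at 166.0, 184.5 and 157.7 CPM in CX-5461. The groups overlapped, with the highest and the lowest library both from CX-5461. Its log2 change was 0.03 ± 0.06 (edgeR adjusted p = 0.644), and the sign turned with library totals only, with a GC offset and without CX-5461 replicate 2.

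Gpi1 encodes glucose-6-phosphate isomerase, which makes fructose 6-phosphate (chromosome 7, 34201330 to 34230336). It was at 621.4, 661.7 and 677.4 CPM in DMSO and at 453.3, 480.3 and 458.7 CPM in CX-5461. These groups lay far apart beside their spread, and Gpi1 fell by 29.0% (log2 change -0.49 ± 0.05, edgeR adjusted p = 1.02e-07). Pfkl is the liver-type subunit of phosphofructokinase, the committed step of the pathway (chromosome 10, 77986947 to 78010083). It was at 342.3, 355.0 and 355.5 CPM in DMSO and at 246.5, 297.4 and 241.5 CPM in CX-5461. Replicate 2 was the highest of the CX-5461 libraries and still below every DMSO library. Pfkl fell by 25.5% (log2 change -0.42 ± 0.06, edgeR adjusted p = 2.33e-05).

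Aldoa encodes aldolase A, which cleaves fructose 1,6-bisphosphate (chromosome 7, 126795234 to 126800751). It was at 3364, 3425 and 3409 CPM in DMSO and at 2426, 2664 and 2346 CPM in CX-5461. The DMSO libraries were nearly level and the CX-5461 libraries all lower. Aldoa fell by 27.1% (log2 change -0.46 ± 0.05, edgeR adjusted p = 7.09e-07). Tpi1 encodes triosephosphate isomerase, which lets both products of aldolase continue down the pathway (chromosome 6, 124810586 to 124814296). It was at 2193, 2259 and 2249 CPM in DMSO and at 1452, 1675 and 1348 CPM in CX-5461. This was the largest change of the 10 genes, a fall of 33.2% (log2 change -0.58 ± 0.06, edgeR adjusted p = 6.09e-07). Of the 10 genes 8 had their highest CX-5461 level in replicate 2, among them Slc2a1, Pfkl, Aldoa and Tpi1.

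Gapdh encodes glyceraldehyde-3-phosphate dehydrogenase, which makes NADH and is often used as a reference transcript (chromosome 6, 125161715 to 125166467). It was at 33.3, 30.8 and 29.9 CPM in DMSO and at 39.3, 31.8 and 32.6 CPM in CX-5461, from 535 to 872 counts a library. The groups overlapped, with a log2 change of 0.15 ± 0.08 (edgeR adjusted p = 0.122). Its size rested on CX-5461 replicate 1, the highest library, without which it was 0.0336 (adjusted p = 0.701). Pgk1 encodes phosphoglycerate kinase, the first step that yields ATP (chromosome X, 106187100 to 106203699). It was at 208.2, 213.6 and 230.3 CPM in DMSO and at 182.0, 175.0 and 151.4 CPM in CX-5461. The groups did not overlap and Pgk1 fell by 22.02% (log2 change -0.36 ± 0.06, edgeR adjusted p = 9.14e-05).

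Eno1 encodes enolase 1, which makes phosphoenolpyruvate (chromosome 4, 150236721 to 150248879). It was at 671.0, 679.4 and 681.4 CPM in DMSO and at 716.8, 785.2 and 712.9 CPM in CX-5461. Every CX-5461 library was above every DMSO library, and the rise of 8.995% passed (log2 change 0.12 ± 0.05, edgeR adjusted p = 0.0231). The call of Eno1 ended when any 1 of the DMSO libraries was left out (adjusted p 0.0917, 0.0772 and 0.0632 without replicates 1, 2 and 3) and without CX-5461 replicate 2 (0.0527). It also ended with library totals only (0.312) and with an offset for GC content (0.129). Ldha encodes the muscle-type subunit of lactate dehydrogenase (chromosome 7, 46841475 to 46855627). It was at 942.8, 994.9 and 986.1 CPM in DMSO and at 892.5, 1004 and 894.5 CPM in CX-5461. The groups overlapped through CX-5461 replicate 2, the highest library of all 6, and the log2 change was -0.07 ± 0.05 (edgeR adjusted p = 0.241). Without that library Ldha was called lower, by -0.13 (edgeR adjusted p = 0.00307), and Gapdh was called higher, by 0.20 (adjusted p = 0.0288), so that 7 of the 10 genes were lower and 1 higher. Over all tested genes 4608 were then lower and 4600 higher. Ldha was also called lower with library totals only (-0.14, adjusted p = 0.0167) and with a GC offset (-0.13, adjusted p = 0.0297). With a gene-span offset its log2 change was 0.0230 (adjusted p = 0.655).

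**Figure D2:**
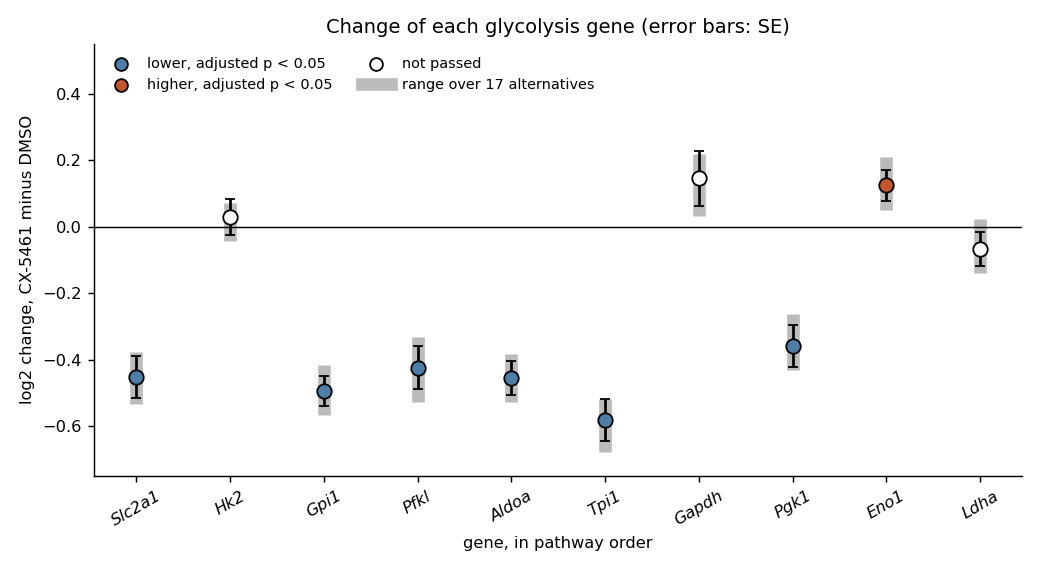
Log2 change of each gene between CX-5461 and DMSO with its SE, in pathway order, and in grey the range over 17 alternative analyses. The 6 lowered genes lie between -0.58 and -0.36 and their ranges stay below 0, whereas the ranges of Hk2 and Ldha cross 0.

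By position in the pathway, 5 of the 6 genes from Slc2a1 to Tpi1 fell and 1, Hk2, did not pass. Of the 4 from Gapdh to Ldha, 1 fell, 1 rose and 2 did not pass. Over all tested genes 36.5% were called lower and 37.2% higher. This grouping was made after the values were seen, and the difference between the early and the late genes was not tested. Of the 4 late genes, Gapdh, Pgk1 and Eno1 share over 60% of their sequence with other genes, so their counts are uncertain, and Ldha was called lower in 4 of the 17 alternatives. The remaining late enzymes were from a wider list of the pathway: Pgam1, phosphoglycerate mutase, had a log2 change of 0.04 ± 0.05 (edgeR adjusted p = 0.563) and Pkm, pyruvate kinase, 0.07 ± 0.04 (adjusted p = 0.147). With a gene-span offset Pkm passed as higher, at 0.16 (adjusted p = 0.00149). The sign of Pgam1 turned under library totals only, a GC offset and without CX-5461 replicate 2, and that of Pkm under library totals only.

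Counts of each gene per count of Ldha in the same library do not depend on any scaling, and this ratio was chosen after the values were seen. For Tpi1 it was 2.33, 2.27 and 2.28 in the DMSO libraries and 1.63, 1.67 and 1.51 in the CX-5461 libraries. For Gpi1 it was 0.659, 0.665 and 0.687 in DMSO and 0.508, 0.478 and 0.513 in CX-5461. On this scale CX-5461 replicate 2 no longer stood closest to DMSO for Gpi1 and Aldoa, but did for Tpi1 and Pfkl. The ratios of Slc2a1, Gpi1, Pfkl, Aldoa, Tpi1 and Pgk1 were lower in every CX-5461 library than in any DMSO library. Those of Hk2 (0.170 ± 0.00139 in DMSO and 0.182 ± 0.00507 in CX-5461, SD, n = 3) and Eno1 (0.695 ± 0.0148 and 0.794 ± 0.0109) were higher in every one, and that of Gapdh overlapped. Per count of Ldha, 31.2% of all other tested genes were lower and 39.2% higher without overlap, 70.3% in all. Each of the 8 that did not overlap had an exact two-sided permutation p of 0.1 (0.1125 after Benjamini-Hochberg adjustment over 9 ratios), the smallest that 3 against 3 samples can give.

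Levels were compared between genes per kilobase of exon, as TMM-scaled CPM divided by the kilobases of exon (RPKM). In DMSO the order was Aldoa at 1168 ± 10.8, Tpi1 at 811.4 ± 13.1, Ldha at 294.4 ± 8.42 and Eno1 at 125.9 ± 1.03 RPKM (SD, n = 3). Gpi1 at 101.3 ± 4.48 and Pgk1 at 96.9 ± 5.13 RPKM followed and overlapped in their libraries. Below them were Pfkl at 52.6 ± 1.12, Slc2a1 at 34.0 ± 1.40 and Hk2 at 27.8 ± 0.802 RPKM. Gapdh came last, at 7.58 ± 0.424 RPKM. The places of Gapdh, Pgk1 and Eno1 in this order are uncertain, since they share most of their sequence with other genes. The exon length was the union of all annotated exons, 6.45 kb for Gpi1 and 2.24 kb for Pgk1. Their longest coding transcripts have 2884 and 1825 bases, so these levels and their overlap depend on the length taken. In CX-5461 Slc2a1, at 24.8 ± 2.39 RPKM, was below Hk2, at 28.4 ± 2.30, with overlapping libraries.

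The Gapdh transcript shares most of its sequence with other annotated genes. Of the 50-base windows of its longest coding transcript, 82.5% occur also in transcripts of other annotated genes, 222 in all and 213 of them pseudogenes (GENCODE M21, either strand). For Eno1 the share was 72.2%, nearly all of it with Eno1b, a near copy on the annotation that was not analysed here, and for Pgk1 68.0%, most of it with the pseudogene Pgk1-rs7. Over the 12133 tested genes with a value the median share was 0.0323%, and 433 genes, or 3.57%, had over 60%. How the deposited counts treat reads that fit several places is not given in the sources used here. The levels of Gapdh, Pgk1 and Eno1 are therefore uncertain, and their order among the 10 genes cannot be read from these values. Of the 7 other genes 5 fell, none rose and 2 did not pass, against 36.5% lower and 37.2% higher over all tested genes. Genes on the opposite strand overlap 11.5% of the exonic bases of Gpi1 (Gm26762), 2.99% of Slc2a1 (Gm12868) and 1.65% of Gapdh (Iffo1). For Tpi1 (Spsb2) and Aldoa (Fam57b) the overlap was 1.24% and 0.859%. Gm26762 and Gm12868 are not among the genes counted here. Iffo1 overlaps 68 exonic bases of Gapdh and rose by 0.55 ± 0.06 (log2, SE, edgeR adjusted p = 4.18e-07). Whether reads of these opposite-strand genes entered the counts of the genes they overlap was not tested.

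**Figure D3:**
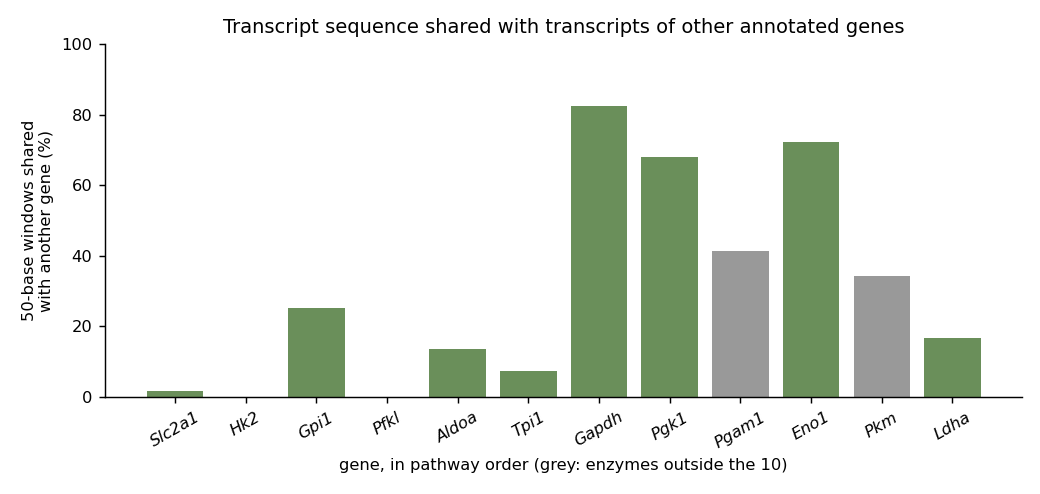
Share of the 50-base windows of each gene's longest coding transcript that occur in a transcript of another annotated gene, for the 10 genes (green) and for Pgam1 and Pkm (grey). Gapdh, Eno1 and Pgk1 exceed 60%, and Slc2a1, Hk2 and Pfkl are below 2%.

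The shares of the other 7 were 0% for Hk2, 0.0543% for Pfkl, 1.74% for Slc2a1, 7.51% for Tpi1, 13.5% for Aldoa, 16.6% for Ldha and 25.3% for Gpi1. Aldoart1 is an aldolase A retrogene that holds 6.27% of the 50-base windows of Aldoa, and 4.69% of its own occur in Aldoa. It was at 64.1, 62.99 and 72.3 CPM in DMSO and at 47.9, 45.2 and 44.3 CPM in CX-5461. It too fell, by 0.54 on the log2 scale (edgeR adjusted p = 1.44e-06), where Aldoa changed by -0.46.

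Isozymes of the same steps went both ways. Eno1b, 1 of 23 listed genes for isozymes and the remaining steps, was not found under that symbol and was not looked up by identifier. Of the others, 9 had too few counts to test and 13 were tested. Among them 6 were higher, 5 lower and 2 not called, against 37.2% higher and 36.5% lower over all tested genes, and the median of their log2 changes was 0.07. Hk1, the hexokinase of most resting tissues, rose 2.54-fold, from 56.9, 55.1 and 51.8 CPM in DMSO to 133.6, 135.4 and 147.6 CPM in CX-5461. Its log2 change was 1.35 ± 0.06 (edgeR adjusted p = 9.88e-12). Pfkm, the muscle-type phosphofructokinase subunit, rose by 0.56 ± 0.05, while Pfkp, the platelet type, fell by 0.36 on the log2 scale. Aldoc, the brain-type aldolase, fell 2.22-fold, from 191.3 ± 2.92 to 86.3 ± 7.87 CPM (SD, n = 3). The neuronal enolase Eno2 fell by 0.60 and the muscle enolase Eno3 rose by 0.41 on the log2 scale. Ldhb, the heart-type lactate dehydrogenase subunit, rose 1.53-fold, from 88.4 ± 1.49 to 135.0 ± 12.3 CPM.

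The other glucose transporters went both ways. Slc2a3, the high-affinity transporter GLUT3, fell by 0.71 on the log2 scale, from 26.7 ± 1.01 to 16.3 ± 0.636 CPM, and Slc2a8 fell by 0.26. Slc2a6 rose by 0.38 ± 0.06. Slc2a4, the insulin-responsive GLUT4, rose from 0.381 ± 0.102 to 1.37 ± 0.141 CPM, which is 5 to 10 counts a library in DMSO and 22 to 34 in CX-5461. Pgk2 and Ldhc had no count in any library, where 3 counts would have been 0.131 to 0.171 CPM.

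The share of a family's reads per kilobase held by each of 5 members was computed in every library. Hk2 held 80.1%, 81.3% and 82.4% of Hk2 plus Hk1 in the DMSO libraries and 63.97%, 66.1% and 60.4% in the CX-5461 libraries. This is a difference of -17.8 percentage points in a family where Hk2 itself did not pass. From raw counts the difference was -20.3. The lengths used were unions of exons, 5.97 kb for Hk2 and 8.53 kb for Hk1. Their longest coding transcripts have 5513 and 4278 bases, so the size of the share depends on the length taken. Pfkl held 59.1% ± 1.21 of Pfkl, Pfkm and Pfkp in DMSO and 47.3% ± 2.07 in CX-5461 (SD, n = 3). Ldha held 83.9% ± 0.437 of Ldha plus Ldhb in DMSO and 76.6% ± 0.740 in CX-5461. Aldoa took a larger share of Aldoa plus Aldoc with CX-5461, 97.0% ± 0.116 against 95.2% ± 0.105. Eno1 held 74.8% ± 1.10 of Eno1, Eno2 and Eno3 in DMSO and 77.2% ± 1.54 in CX-5461, with the doubt on its reads given above. From raw counts the Eno1 difference of 2.44 percentage points became 3.90, and without CX-5461 replicate 2 it was 1.56. In all 5 families the groups did not overlap, and the exact two-sided permutation p was 0.1 for each (0.1 after adjustment over the 5), the smallest the design allows. The groups did not overlap in the levels of 76.2% of all tested genes either, and no such shares were computed for other gene families.

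**Figure D4:**
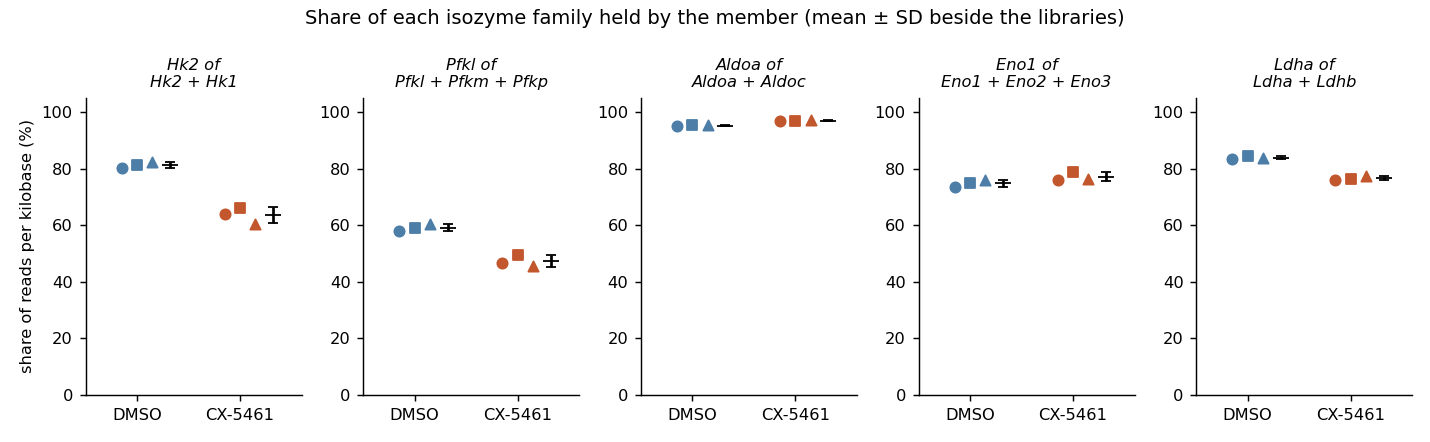
Share of an isozyme family's reads per kilobase of exon held by Hk2, Pfkl, Aldoa, Eno1 and Ldha in each library, in percent, with mean and SD beside the points (circle, square and triangle are replicates 1, 2 and 3). With CX-5461 the shares of Hk2, Pfkl and Ldha are lower in every library and those of Aldoa and Eno1 higher.

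Beyond the pathway itself, the lactate carriers Slc16a1 and Slc16a3 were lower. Slc16a7, on the same list, was higher at a low level, from 0.909 ± 0.326 CPM in DMSO to 1.73 ± 0.290 in CX-5461 (SD, n = 3; edgeR adjusted p = 0.00801). Of 16 tested genes of lactate and pyruvate transport and pyruvate dehydrogenase, 9 fell, 2 rose and 5 were not called (median log2 change -0.25), so 11 of 16 were called where 73.7% of all tested genes were (36.5% lower and 37.2% higher). Slc16a1 (MCT1), which carries lactate and pyruvate across the plasma membrane, fell 2.28-fold, from 157.5 ± 10.1 to 69.2 ± 3.27 CPM (SD, n = 3; edgeR adjusted p = 4.85e-11). Slc16a3 (MCT4), the lactate exporter of glycolytic cells, fell by 0.78 on the log2 scale. Pdp1, the phosphatase that activates pyruvate dehydrogenase, fell by 1.17. Of 9 tested regulators of glycolytic flux, 4 fell, 2 rose and 3 did not pass. The thioredoxin-interacting protein relative Arrdc4 fell by 1.00, the glucose-sensing factor Mlxip (MondoA) by 0.31 and the fructose 2,6-bisphosphate enzyme Pfkfb4 by 0.30 on the log2 scale. Pfkfb4 lost its call without DMSO replicate 2 (adjusted p = 0.143) and without CX-5461 replicate 1 (0.0757) or 3 (0.0517). Tigar, a p53 target that lowers fructose 2,6-bisphosphate and is listed in the table by its older name 9630033F20Rik, was at 77.9 ± 2.40 and 77.5 ± 0.118 CPM (edgeR adjusted p = 0.907). It was looked up by identifier after the symbol was not found.

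Of the 7 genes of the pentose phosphate pathway, which branches off at glucose 6-phosphate, 5 fell, none rose and 2 did not pass. Of all tested genes 36.5% were called lower and 37.2% higher, 73.7% in all. Taldo1, transaldolase, fell by 0.64, G6pdx, the first enzyme of the branch, by 0.48 and Rpia by 0.28 on the log2 scale. Of 10 tested genes of gluconeogenesis and glycogen, 5 fell, 4 rose and 1 did not pass. Pcx, pyruvate carboxylase, rose 2.95-fold, from 9.78 ± 0.293 to 28.8 ± 2.71 CPM, and Ugp2, which makes UDP-glucose, rose by 0.83 ± 0.07. Pck2, the mitochondrial phosphoenolpyruvate carboxykinase, fell by 0.97 on the log2 scale, from 275.2 ± 7.81 to 140.4 ± 6.57 CPM.

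HIF targets outside glycolysis were set beside the 10 genes. Of 12 tested, 9 fell, 1 rose and 2 were not called, against 36.5% of all tested genes lower and 37.2% higher. Their median log2 change was -0.75, that of the glycolysis genes -0.39. P4ha2, a collagen prolyl hydroxylase, fell by 1.61, Ankrd37 by 1.57 and Ero1l, the endoplasmic reticulum oxidase, by 1.45 on the log2 scale. Of 8 tested HIF factors and oxygen sensors, 4 fell, 1 rose and 3 did not pass. Egln3 fell by 1.66, Arnt, the partner of the HIF alpha subunits, by 0.49 and Vhl, which marks them for degradation, by 0.47. These lists were chosen from knowledge of the pathway with earlier results of these data known, and neither they nor the 10 genes were tested as sets.

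**Figure D5:**
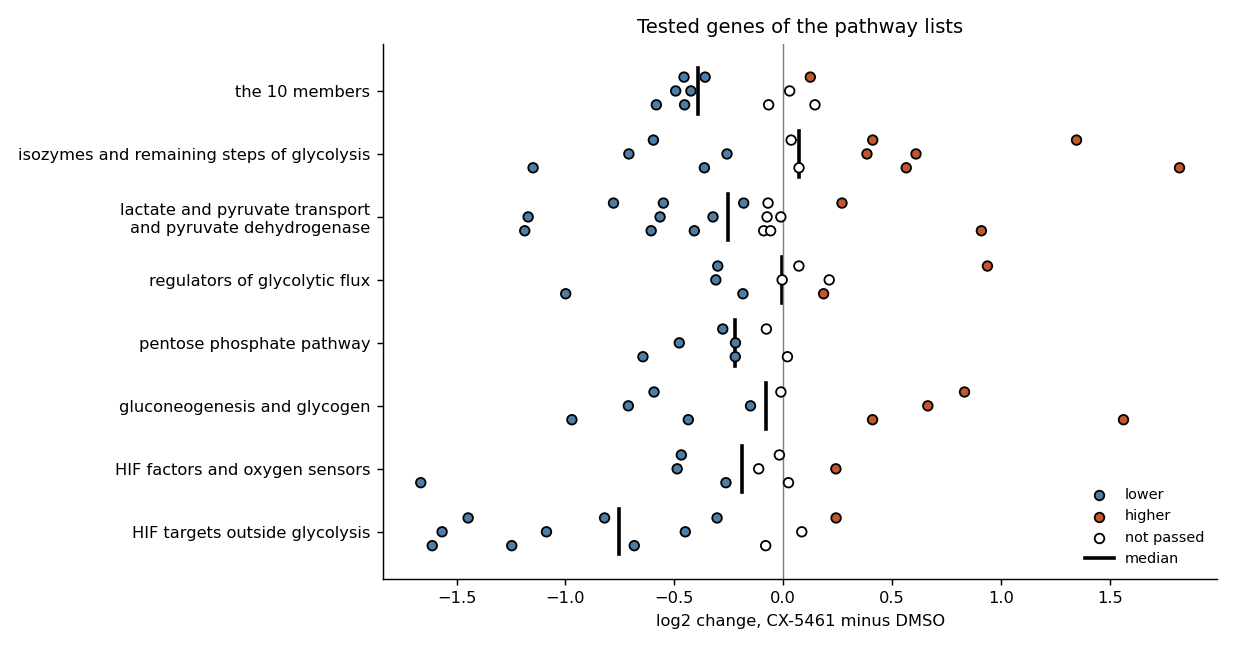
Log2 change of every tested gene in the 10 glycolysis genes and in 7 lists around them, colored by the edgeR call, with a bar at each list's median. The median of the 10 genes is -0.39, that of the other isozymes and steps 0.07 and that of HIF targets outside glycolysis -0.75.

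Among 9878 other genes at 5 CPM or more, those whose profile over the 6 libraries lay closest to Slc2a1 were Acn9, Smim14 and Emg1. Their root mean square distances from Slc2a1 in log2 CPM relative to each gene's mean were 0.0267, 0.0325 and 0.0340. For Ldha the closest were Cwc22, Psmd6 and Eef1b2, at 0.0161, 0.0202 and 0.0205. All 6 libraries of both groups enter these distances.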

How the data were processed

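RNA was sequenced in 6 libraries of the mouse line B16, 3 with DMSO and 3 with CX-5461, grouped by their titles. The deposited table gives counts of reads per gene, whole numbers that the authors had not normalized, since the column totals differ. The submitters' processing notes name the builds GRCm38 and mm10. For the aligner, the counter, strand use and multiply mapped reads, nothing is given in the sources used here. Columns were matched to samples by the description label.

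Genes were kept by filterByExpr (minimum count 10) of edgeR 4.0.16 in R 4.3.3, which left 12198 of 22740. Groups were compared by the quasi-likelihood test of edgeR with TMM factors and treatment as the only term, two-sided, with Benjamini-Hochberg adjustment over all tested genes. Standard errors were taken from the log2 change and its F statistic. The common biological coefficient of variation was 4.86%. Coordinates, exon lengths (union of exons) and shared 50-base windows come from GENCODE M21 (GRCm38), which matched 21919 identifiers, and promoters from RefSeq (GRCm38.p6). Totals of 17573990 to 22908309 counts set the precision, and floors of 3 counts cover counting error only.

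The 10 genes and all lists were chosen with earlier results of these data known. The text names the 10 genes, every tested isozyme, and of each other list the 3 called genes with the largest change at 5 CPM or more. Slc16a7, below that level, and Tigar are named besides. Alternatives were RLE factors, library totals, no filter or 1 CPM in 3 libraries, DESeq2 1.42.0, limma-voom (limma 3.58.1), a replicate block, offsets for GC content and gene span, scaling without mitochondrial genes and the 10 genes, and each library left out.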

Additional observations from a re-analysis of the deposited data

How the results depend on the processing

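Over 17 alternatives, 152 of 170 refits of the 10 genes kept their direction and side of the threshold, 7 lost the call, 6 gained one and 5 turned sign. Slc2a1, Gpi1, Pfkl, Aldoa, Tpi1 and Pgk1 were lower in every alternative run. The number of the 10 genes called higher was 1 as reported, 2 with a gene-span offset, and 0 with library totals only and with a GC offset, with or without the replicate block. With a library left out it ran from 0 to 1. The number called lower was 7 with library totals only, with a GC offset (with or without the block) and without CX-5461 replicate 2, through Ldha each time, and 6 otherwise. Over all tested genes 5109 were called lower and 3989 higher with library totals only, and 4475 and 4521 with a GC offset. Hk2 turned sign with library totals only (-0.0442), a GC offset (-0.0299, or -0.0310 with the block) and without CX-5461 replicate 2. Over the refits without 1 library its log2 change ran from -0.0387 to 0.0727. Ldha was called lower with library totals only (-0.14), a GC offset (-0.13, with or without the block) and without CX-5461 replicate 2 (-0.13), and turned to 0.0230 with the gene-span offset. Gapdh passed as higher with that offset (0.22) and without CX-5461 replicate 2 (0.20), and was 0.0336 without CX-5461 replicate 1. Pgam1 turned to -0.0373 with library totals only and to -0.0207 with a GC offset (-0.0211 with the block), and ran from -0.0120 to 0.0790 without 1 library. Pkm turned to -0.00116 with library totals only. From raw counts in place of reads per kilobase the isozyme share of Hk2 differed by -20.3 percentage points and that of Pfkl by -6.58. The share of Aldoa differed by 1.96, that of Eno1 by 3.90 and that of Ldha by -4.34. The directions were those reported, and the sizes moved since exon lengths weigh the isozymes differently. Otherwise the cause was not tested.

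Whether same-numbered samples were handled together is not known, and correlations over 3 libraries a group cannot decide it. Deviations of same-numbered libraries correlated at 0.0353, -0.00166 and -0.0653 for numbers 1, 2 and 3, and DMSO replicate 1 correlated most with CX-5461 replicate 3. With the replicate block 6 of the 10 genes were lower and 1 higher, as without it, and over all genes 4464 were lower and 4536 higher against 4448 and 4538. Counting error is widest for the lowest genes, such as Slc2a4 at 5 to 10 counts a DMSO library. The exact permutation p of the Eno1 share was 0.2 without DMSO replicate 1 or 2 or CX-5461 replicate 2.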
